A study of Mus musculus with 3 samples.

Results

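The cells described here are blood progenitors of mouse bone marrow whose transcripts place them in S phase, the part of the cell cycle in which DNA is copied. A cell was counted as an S phase cell when its S score, the summed UMIs (molecules counted once each) of Mcm2, Mcm4, Mcm5, Mcm6, Gins2, Cdc6, Ung, Dtl, E2f1 and Dscc1 per 10000 UMIs of the cell, was at least 10. Its G2M score, made the same way from Cenpf, Nusap1, Aspm, Hmmr, Ube2c, Ccnb2, Cdc20, Ccnb1, Cdkn3 and Kif2c, had to be under 10. The rule took 5726 of 21251 cells, or 26.9%. They comprised 2548 of 8184 DKO cells, 1101 of 4920 KO cells and 2077 of 8147 WT cells. These 20 genes chose the cells, so their levels are given as a description only.

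The study sequenced sorted LSK cells (lineage-negative, Sca-1-positive and Kit-positive), a marrow fraction that holds stem cells and multipotent progenitors, with the 10x Chromium 3' v2 kit. DKO cells carry Spop(D/D) with Myd88(-/-), KO cells carry Spop(D/D) with Myd88(+/+), and WT cells carry Spop(+/+) with Myd88(+/+). SPOP is the substrate adaptor of a cullin 3 ubiquitin ligase, and MyD88 relays signals from Toll-like and interleukin-1 receptors. Each genotype is 1 library, and the labels give no age, sex, number of animals or Cre driver.

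In G1 the MCM helicase is loaded onto replication origins with the help of CDC6 and CDT1, and in S phase CDC45 and GINS join it to form the moving helicase. The E2F factors, released from the RB proteins by cyclin-dependent kinases, drive the transcription of these genes together with enzymes that make deoxynucleotides and chaperones that rebuild chromatin behind the fork. Stem cells of adult marrow divide rarely, and the multipotent and lineage-primed progenitors around them cycle more.

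Some properties of whole libraries touch the results. S phase cells held 14537 UMIs at the median in DKO, 17766 in KO and 11856 in WT, against 10821, 17172 and 8497 UMIs in the remaining cells of those libraries. Xist stood at 1626 CPM (counts per 1e+06 summed UMIs) in DKO S phase cells, 0 in KO and 0.119 in WT, and Ddx3y at 0, 29.03 and 37.3 CPM in the same order. DKO cells therefore differ from the others in sex as well as genotype, and the 2 cannot be told apart. Spop transcripts stood at 67.6 CPM in DKO, 58.1 in KO and 64.8 in WT, and Myd88 at 3.405 CPM in DKO, 24.3 in KO and 11.2 in WT, in S phase cells. A 3' count outside the deleted exons checks nothing for either gene, and the labels do not say which exons were deleted. Cell barcodes seen in more than 1 library numbered 183, and 16 of the matches joined S phase cells in both libraries. With 1 library per genotype no test between genotypes is possible, and every interval below covers counting error only. In these summed counts, a change in the number of cells of a type and a change in RNA per cell cannot be told apart.

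The share of cells in S phase was highest in DKO. It was 31.1% in DKO (Clopper-Pearson 95% interval 30.1 to 32.2), 22.4% in KO (21.2 to 23.6) and 25.5% in WT (24.5 to 26.5). With every cell thinned to 5500 UMIs the shares were 29.7%, 23.9% and 25.1% in the same order, and at 3700 UMIs they were 30.3%, 26.5% and 25.4%, so the KO share moved from below WT to above it. DKO stayed highest at all 3 depths, while the order of KO and WT depended on depth. Mitotic cells, those with a G2M score of at least 10, made up 17.8% of DKO, 20.8% of KO and 12.3% of WT cells.

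Scores were also spread differently. Many DKO and WT cells lay near a score of 0 with a shoulder of cells through the threshold, while in KO the fullest bin of width 1 began at 8, just under the threshold. It began at 1 in DKO and at 0 in WT. Cells with a score under 5 made up 30.3% of DKO, 22.1% of KO and 41.9% of WT cells, and cells from 5 to 10 made up 20.7%, 34.7% and 20.3% (cells with a G2M score under 10). At 15 or more the shares were 11.8% in DKO, 3.09% in KO and 9.38% in WT. Scores of at least 20 were held by 182 DKO, 12 KO and 158 WT cells. After thinning to 5500 UMIs, 12.4% of DKO, 6.71% of KO and 9.91% of WT cells still reached 15. The low end depended on depth. Over all cells, scores under 3 were held by 28.6% of DKO, 24.3% of KO and 35.6% of WT cells at 5500 UMIs. At 3700 UMIs they were held by 40.9%, 38.5% and 47.8%, so DKO and KO lay close there. Scores from 3 to 10 were held by 40.9%, 50.9% and 38.7% at 5500 UMIs and by 27.0%, 33.5% and 25.8% at 3700.

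**Figure D1:**
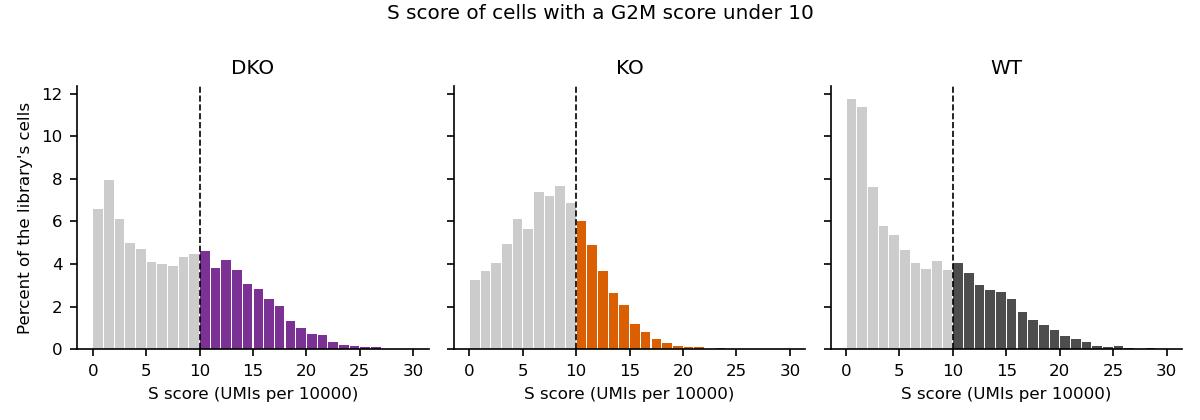
Distribution of the S score (UMIs of 10 genes per 10000 UMIs of the cell) among cells with a G2M score under 10, as a percent of all cells of the library, in bins of 1. The dashed line marks the threshold of 10 and coloured bars the S phase cells, which made up 31.1% of DKO, 22.4% of KO and 25.5% of WT.

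The threshold cuts a continuous range. From 10 to 11 there were 376 DKO, 296 KO and 329 WT cells, and from 9 to 10, just outside, 364, 337 and 304 cells. Cells just inside held 101 CPM of Uhrf1 in DKO, 126 in KO and 119 in WT, against 97.2, 114 and 119 CPM just outside. Uhrf1, which the rule did not use, thus changed little across the line. Hells, also outside the rule, had 92.0 CPM inside and 76.1 outside in DKO, 130.1 and 130.3 in KO, and 130.6 and 129.5 in WT. Lig1, likewise outside it, had 252 and 222 CPM in DKO, 173 and 190 in KO, and 226 and 230 in WT. The limit on the G2M score left out 28 DKO, 8 KO and 31 WT cells that reached the S threshold.

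The genes of the rule, given as a description, were not equally confined to these cells. Ung, the uracil-DNA glycosylase that removes uracil from new DNA, had 172 against 23.7 CPM in DKO, 175 against 40.5 in KO and 207 against 29.9 in WT (S phase cells against the rest). E2f1, an activating E2F factor, had 86.3 against 18.3 CPM in DKO, 80.2 against 27.7 in KO and 113 against 21.5 in WT. Mcm5, a subunit of the replicative helicase, had 205 against 72.5 CPM in DKO, 181 against 91.3 in KO and 178 against 57.3 in WT. Gins2, a subunit of the GINS complex, had 107 against 34.97 CPM in DKO, 110.5 against 60.9 in KO and 120.2 against 36.99 in WT. In every library Ung had the widest gap of the 10 S genes. The KO rest held more of all 4 transcripts than the DKO and WT rest. Ung was nearly absent from mitotic cells, at 3.53 CPM in DKO, 5.07 in KO and 7.43 in WT, whereas Mcm5 was retained there at 73.8 CPM in DKO, 71.1 in KO and 60.5 in WT. After thinning to 5500 UMIs, 58.1% of DKO, 65.3% of KO and 64.7% of WT S phase cells held an Ung UMI, against 1.5%, 1.7% and 3.0% of mitotic cells. The source of the Ung UMIs in mitotic cells was not tested.

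**Figure D2:**
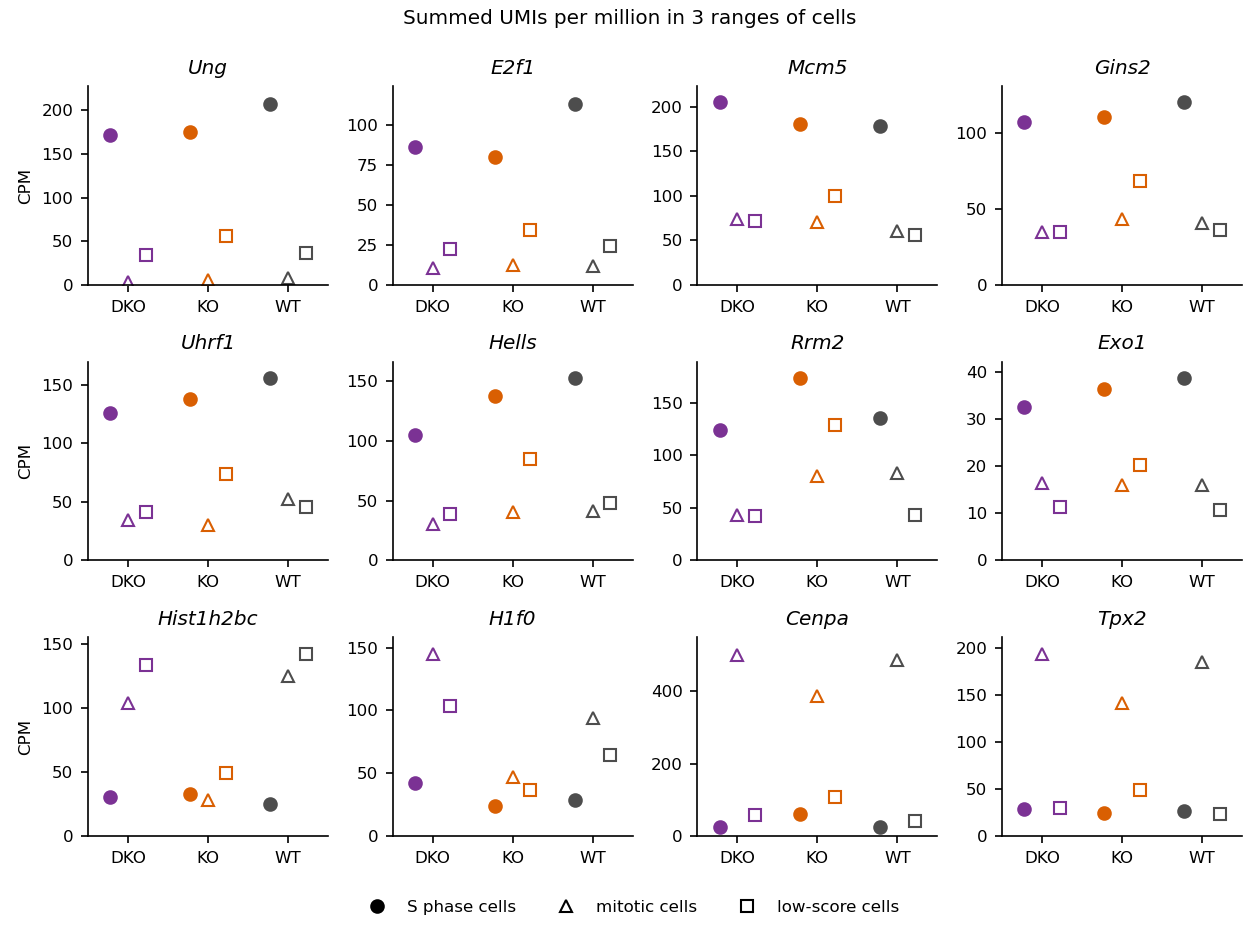
Levels in CPM of summed UMIs of 12 genes in S phase cells (filled circles), mitotic cells (open triangles) and low-score cells (open squares, both scores under 10) of DKO, KO and WT, 1 point for each library and range of cells. Ung and E2f1 chose the cells and were lowest in mitotic cells, while Cenpa and Tpx2 were highest there.

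E2F sites are a shared feature of the promoters of replication genes, and the sequences below show where their 7-base cores lie upstream of 5 genes that are high in S phase cells. They are RefSeq sequences of build GRCm38.p6, written 5' to 3' on the gene's strand, and capitals mark matches to the core TTCCCGC, to its variant TTCGCGC and to its variant TTGGCGC, on either strand. Overlapping matches form 1 run of capitals, and stretches that lie in annotated exons are not shown.
Mcm6 (chr1:128359717-128359839, minus strand): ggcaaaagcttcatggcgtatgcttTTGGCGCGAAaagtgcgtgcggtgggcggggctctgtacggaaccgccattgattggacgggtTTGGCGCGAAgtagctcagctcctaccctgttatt
Mcm5 (chr8:75109320-75109391, plus strand): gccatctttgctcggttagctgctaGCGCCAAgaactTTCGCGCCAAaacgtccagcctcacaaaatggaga
Cdc6 (chr11:98907988-98908044, plus strand): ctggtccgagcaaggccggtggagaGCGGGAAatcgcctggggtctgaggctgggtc
Dtl (chr1:191575545-191575576, minus strand): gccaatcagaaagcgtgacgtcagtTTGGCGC
Uhrf1 (chr17:56303264-56303320, plus strand): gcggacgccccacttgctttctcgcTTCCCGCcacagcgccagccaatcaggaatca
Mcm6, a helicase subunit, held 2 such runs, each made of 2 overlapping matches on opposite strands. A core of this kind was found in the window from 250 bases before to 50 after the start of 9.203% of 27025 genes, and of 20.2% of the 3516 matched genes that were measured in all 3 libraries. Among list genes the windows that held one were 4 of 7 matched S score genes, 8 of 14 origin licensing genes and 20 of 30 replication fork genes. The 5 genes shown were picked among those with a match, and Mcm2, Ung and E2f1 of the S score had none. A match is a description of letters and not of binding.

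Promoters of mitotic genes were searched for other letters. The next sequences, from genes that were low in S phase cells and high in mitotic cells, carry capitals at the cell cycle homology region TTTGAA and the CCAAT box, on either strand.
Kif11 (chr19:37376312-37376381, plus strand): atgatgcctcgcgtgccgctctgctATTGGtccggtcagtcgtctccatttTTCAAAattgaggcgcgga
Cdc20 (chr4:118437353-118437421, minus strand): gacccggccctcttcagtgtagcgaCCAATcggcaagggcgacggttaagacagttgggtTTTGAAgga
Cdkn3 (chr14:46760367-46760536, plus strand): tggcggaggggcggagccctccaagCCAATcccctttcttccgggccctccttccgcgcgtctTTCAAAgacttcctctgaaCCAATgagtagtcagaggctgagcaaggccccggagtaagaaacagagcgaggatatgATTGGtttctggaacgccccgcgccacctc
The genes shown all hold both motifs, while Nusap1 of the G2M score held neither and Kif2c held no CCAAT. Cdc20 and Cdkn3 belong to the G2M score, so their low level in S phase cells follows from the rule. The TTTGAA motif was present in 8 of 10 G2M score genes and 32 of 47 other G2 and M genes, against 14.6% of the measured genes. CCAAT was present in 8 of 10 G2M score genes and 34 of 47 other G2 and M genes, against 42.7% of the measured genes. It was also present in 13 of 17 chromatin assembly genes and 8 of 14 origin licensing genes, where TTTGAA was present in 5 and 2. CCAAT thus did not set mitotic genes apart from chromatin assembly genes.

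Outside the 20 rule genes, S phase cells differed from the rest of their own library in a small share of the transcriptome, and least in KO. At 1.5-fold or more and a mean of at least 20 CPM, 158 genes were higher and 113 lower in DKO (2.99% and 2.14% of 5276 measured). In KO 34 were higher and 55 lower (0.696% and 1.13% of 4886), and in WT 240 were higher and 146 lower (4.6% and 2.8% of 5213). Of 4500 genes measured in all 3 libraries, 28 were higher in each (0.622%) and 34 lower in each (0.756%), and none was called higher in 1 library and lower in another. With cells chosen on a random part of their UMIs and measured on the remainder, the numbers were 138 and 98 in DKO, 26 and 51 in KO, and 211 and 134 in WT. Of 139 genes higher in both DKO and WT, all were above 0 in KO on the log2 scale and below both other libraries, with medians of 0.81 in DKO, 0.39 in KO and 0.91 in WT, an order that the choice through DKO and WT partly fixes.

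Among the 10 genes with the highest mean ratio of those 28 were Uhrf1, Hells, Exo1, Cdt1, Chek1, Mybl2, Rrm2, Lig1 and Zmynd19. Uhrf1, which brings the maintenance DNA methyltransferase to new DNA, had 126 against 38.98 CPM in DKO, 138 against 60.4 in KO and 156 against 47.1 in WT, and the ratios were 3.23-fold (95% interval 3.08 to 3.39) in DKO, 2.28-fold (2.18 to 2.39) in KO and 3.304-fold (3.15 to 3.47) in WT. Hells, a chromatin remodeller needed for DNA methylation, had 105 against 36.3 CPM in DKO, 138 against 71.7 in KO and 153 against 46.9 in WT. For both genes the KO rest held the most. Exo1, an exonuclease of mismatch repair, had 32.4 against 13.1 CPM in DKO, 36.2 against 18.9 in KO and 38.7 against 11.96 in WT. Chek1, the kinase that acts when forks stall, had 31.7 against 11.97 CPM in DKO, 32.6 against 17.2 in KO and 42.1 against 15.97 in WT. Mybl2, a factor of the complex that turns on mitotic genes, had 40.4 against 15.1 CPM in DKO, 47.2 against 30.8 in KO and 36.3 against 11.1 in WT. For Mybl2 the ratios were 2.67-fold (95% interval 2.47 to 2.89) in DKO, 1.53-fold (1.42 to 1.65) in KO and 3.26-fold (2.95 to 3.604) in WT, so the KO contrast was the smallest. Of the 28 genes, 15 of 22 with a promoter entry held an E2F core, and of the 34 lower genes 2 of 26 did, against 15 of 26 with TTTGAA.

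Gene lists are counted at a mean of at least 5 CPM, where 3.18%, 1% and 4.57% of non-rule genes were called higher and 3.21%, 1.44% and 4.67% lower in DKO, KO and WT S phase cells against the rest. All median log2 ratios over the non-rule genes lay between -0.06 and -0.01. Origin licensing genes had list medians of 0.59 in DKO, 0.41 in KO and 0.82 in WT, and the number called higher was 9 in DKO, 4 in KO and 10 in WT of 15 measured. Mcm3, a helicase subunit outside the rule, had 303 against 135 CPM in DKO, 211 against 131 in KO and 253 against 106 in WT. Orc1, the cell-cycle regulated subunit of the origin recognition complex, had 8.95 against 3.401 CPM in DKO, 9.33 against 5.68 in KO and 9.07 against 2.97 in WT. Gmnn, the inhibitor of CDT1 that blocks a further round of licensing, had 233 against 116 CPM in DKO, 222 against 163 in KO and 201 against 92.8 in WT. Dbf4, the activating partner of the CDC7 kinase, ran the other way, at 27.8 against 46.9 CPM in DKO, 30.01 against 48.5 in KO and 24.1 against 32.4 in WT.

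Replication fork genes formed the list with the highest medians, 0.84 in DKO, 0.41 in KO and 0.98 in WT, and 29 in DKO, 9 in KO and 31 in WT of 37 measured were higher, with none lower in any library. Pcna, the sliding clamp, had 209 against 89.9 CPM in DKO, 183 against 125 in KO and 222 against 97.4 in WT. Lig1, the ligase that joins Okazaki fragments, had 286 against 109.5 CPM in DKO, 196 against 128 in KO and 270.3 against 100.1 in WT. Clspn, the fork adaptor for CHEK1, had 81.9 against 38.5 CPM in DKO, 73.96 against 45.04 in KO and 75.6 against 30.8 in WT, and Cdc45, the helicase cofactor, had 45.6 against 22.4 CPM in DKO, 40.1 against 26.9 in KO and 37.1 against 15.8 in WT. All 4 transcripts were lower in the rest of DKO and WT than in the rest of KO.

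Nucleotide supply genes had medians of 0.61 in DKO, 0.26 in KO and 0.78 in WT, with 14 in DKO, 2 in KO and 19 in WT of 26 measured called higher and 1 called lower in WT. Rrm2, the regulated subunit of ribonucleotide reductase, had 124 against 42.5 CPM in DKO, 174 against 114 in KO and 135 against 52.5 in WT, with ratios of 2.92-fold (95% interval 2.79 to 3.05) in DKO, 1.52-fold (1.46 to 1.58) in KO and 2.58-fold (2.46 to 2.71) in WT. Tyms, thymidylate synthase, had 233 against 108 CPM in DKO, 133 against 111 in KO and 180.1 against 81.98 in WT, so its KO difference did not reach 1.5-fold. Tk1, the S phase thymidine kinase, had 164 against 78.6 CPM in DKO, 134 against 105 in KO and 115 against 54.3 in WT. KO S phase cells were thus the highest of the 3 in Rrm2 and the lowest in Tyms.

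Chromatin assembly genes had medians of 0.53 in DKO, 0.16 in KO and 0.65 in WT, with 7 in DKO, 3 in KO and 11 in WT of 20 measured called higher and 1 called lower in each library. Chaf1a, a subunit of the assembly factor that loads histones at forks, had 73.2 against 35.7 CPM in DKO, 67.3 against 45.4 in KO and 71.6 against 29.3 in WT. Slbp, which binds the stem-loop of histone mRNAs, had 228 against 127 CPM in DKO, 187 against 137 in KO and 237 against 129.9 in WT. The replication-dependent histone genes ran against their usual S phase timing, with medians of -0.67 in DKO, -0.38 in KO and -0.62 in WT and 16 of 24 in DKO, 3 of 21 in KO and 14 of 25 in WT called lower. Of 64 such genes in the table only these passed the level minimum. Most mRNAs of this family end in a stem-loop without a poly(A) tail and are not primed by oligo-dT, so the list shows their polyadenylated forms. Hist1h2bc, one of the histone genes known to give polyadenylated mRNA, had 30.1 against 124 CPM in DKO, 32.6 against 42.7 in KO and 24.9 against 138 in WT. H1f0, the linker histone of resting and differentiated cells, had 42.02 against 118 CPM in DKO, 23.6 against 39.9 in KO and 28.6 against 71.6 in WT.

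The E2F and RB list had medians of 0.48 in DKO, 0.29 in KO and 0.58 in WT and 9 of 20 in DKO, 5 of 19 in KO and 10 of 21 in WT called higher, with 1 lower in DKO. Its largest ratios belonged to the cyclins E, which activate CDK2 at the start of S phase. Ccne1 had 15.3 against 3.804 CPM in DKO, 36.4 against 14.7 in KO and 21.4 against 4.86 in WT, and Ccne2 had 20.4 against 4.73 CPM in DKO, 29.3 against 12.8 in KO and 34.7 against 7.76 in WT. The Ccne1 ratios were 4.01-fold (95% interval 3.47 to 4.65) in DKO, 2.47-fold (2.26 to 2.71) in KO and 4.398-fold (3.81 to 5.09) in WT, and the KO rest held the most of both cyclins. Checkpoint and repair genes had medians of 0.53 in DKO, 0.27 in KO and 0.70 in WT with 18 of 40 in DKO, 10 of 40 in KO and 25 of 42 in WT called higher and 1 called lower in each library. Brca1, which acts in homologous recombination and fork protection, had 16.4 against 7.47 CPM in DKO, 16.97 against 10.6 in KO and 19.9 against 8.17 in WT. Cohesin genes lay near the background, with medians of 0.01 in DKO, 0.01 in KO and 0.09 in WT with none of 13 called higher and 1 called lower, in DKO.

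**Figure D3:**
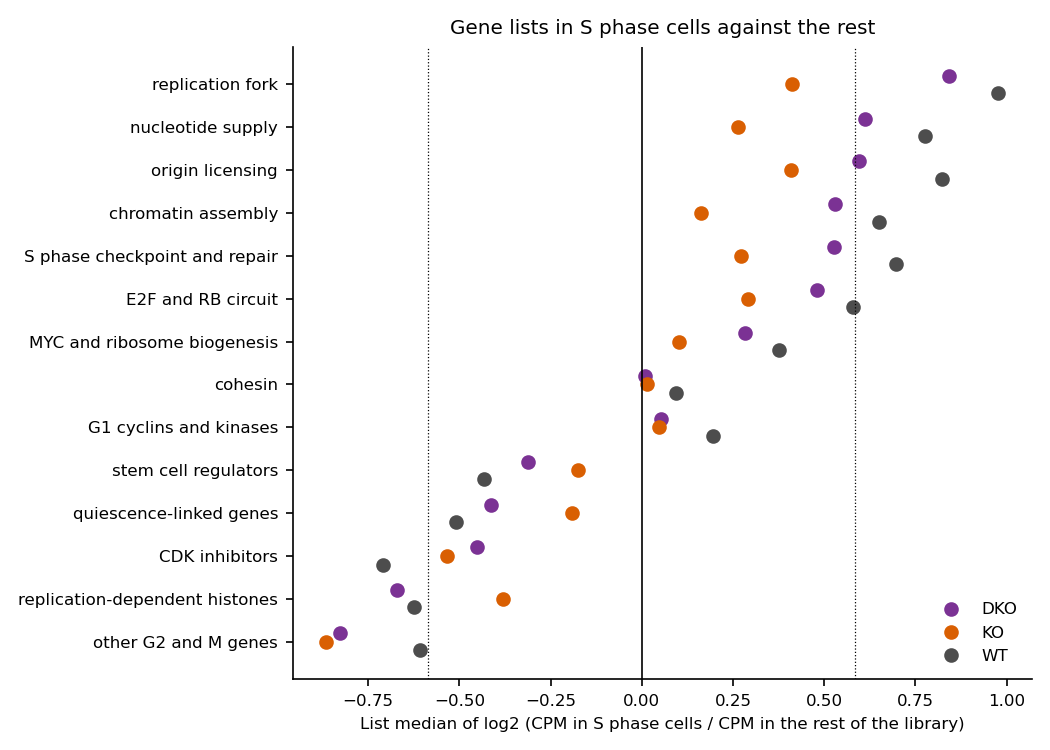
Median log2 ratio of CPM in S phase cells over the rest of the same library for 14 gene lists in DKO, KO and WT, 1 point for each list and library. Dotted lines mark 1.5-fold and the solid line no difference. The replication lists lie right of 0 in all 3 libraries, with KO nearest to 0, and the G2 and M and histone lists lie left.

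Genes of G2 and mitosis outside the rule were lower in summed counts of S phase cells, with medians of -0.83 in DKO, -0.87 in KO and -0.61 in WT and 37 of 58 in DKO, 38 of 57 in KO and 30 of 57 in WT called lower. The G2M limit places every cell rich in such transcripts in the rest, so these values follow from the rule. The median cell gave another direction in DKO and WT, with list sums of 34.2 against 18.3 UMIs per 10000 in DKO, 38.9 against 58.9 in KO and 32.5 against 14.2 in WT, S phase cells against the rest. Cenpa, the centromeric histone, had 23.5 against 210.4 CPM in DKO, 61.3 against 193 in KO and 24.8 against 146 in WT. Tpx2, which targets the Aurora A kinase to the spindle, had 28.8 against 86.2 CPM in DKO, 23.98 against 77.2 in KO and 27.04 against 61.6 in WT. Tpx2 stood at 29.6 CPM in DKO, 48.98 in KO and 23.4 in WT in low-score cells. H1f0 was lower in S phase cells than in both other ranges, at 145 CPM in DKO, 46.9 in KO and 93.8 in WT in mitotic cells and 104 CPM in DKO, 36.8 in KO and 64.7 in WT in low-score cells. With mitotic cells left out of the rest, Kif11, Prc1 and Fam64a of the 10 lowest genes changed direction in DKO and WT.

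Set against mitotic cells of the same library, S phase cells again had higher replication transcripts. These values are a description, since the limits on both scores chose the cells. At 20 CPM, 4.83% in DKO, 2.31% in KO and 6.22% in WT of non-rule genes were higher and 5.23% in DKO, 4.2% in KO and 5.43% in WT lower. At the level minimum of the lists the shares were 6.01% in DKO, 3.38% in KO and 7.99% in WT higher and 5.94% in DKO, 5.71% in KO and 6.67% in WT lower. Replication fork genes had medians of 0.67 in DKO, 0.63 in KO and 0.76 in WT, with 23 of 37 in DKO, 20 of 37 in KO and 23 of 37 in WT higher. The KO median thus lay near those of DKO and WT here, unlike in the contrast with the whole rest. Nucleotide supply genes had medians of 0.74 in DKO, 0.41 in KO and 0.65 in WT, with 16 of 26 in DKO, 8 of 26 in KO and 17 of 26 in WT higher. Replication-dependent histone genes were lower in S phase than in mitotic cells, with medians of -1.27 in DKO, -0.77 in KO and -1.33 in WT and 23 of 25 in DKO, 14 of 23 in KO and 30 of 32 in WT lower.

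A minority of quiescence-linked genes were lower in S phase cells, and CDK inhibitors were divided. CDK inhibitors had medians of -0.45 in DKO, -0.53 in KO and -0.71 in WT, and 2 of 5 in DKO, 2 of 4 in KO and 3 of 5 in WT were called lower. Cdkn1b, which encodes p27, had 11.9 against 20.6 CPM in DKO, 6.25 against 10.9 in KO and 12.6 against 22.03 in WT. Cdkn2d, which encodes p19 of the INK4 family, had 30.8 against 57.03 CPM in DKO, 25.01 against 41.9 in KO and 19.6 against 41.5 in WT. Cdkn1a, which encodes p21, was the exception, at 31.3 against 22.3 CPM in DKO, 17.5 against 12.9 in KO and 48.2 against 36.5 in WT, below the 1.5-fold line in every library. Quiescence-linked genes had medians of -0.41 in DKO, -0.19 in KO and -0.51 in WT, with 6 of 23 in DKO, 1 of 20 in KO and 9 of 24 in WT lower and none higher. Ccng2, a cyclin induced by FOXO factors in resting cells, had 9.85 against 32.4 CPM in DKO, 4.600 against 11.2 in KO and 8.59 against 31.9 in WT. Txnip, which restrains glucose uptake, had 110.3 against 207 CPM in DKO, 33.7 against 45.8 in KO and 94.8 against 198 in WT. In KO the rest held little more Txnip than the S phase cells.

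Most stem cell regulators stayed within 1.5-fold, with medians of -0.31 in DKO, -0.18 in KO and -0.43 in WT and 5 of 28 in DKO, 0 of 23 in KO and 10 of 25 in WT called lower. The stem cell marker list summed in the median cell to 9.82 against 13.8 UMIs per 10000 in DKO, 19.6 against 17.9 in KO and 10.8 against 16.1 in WT, which in KO was higher in S phase cells. That list includes Ifitm1 and Ly6a, which are among the leading genes of an unnamed cluster of 1709 KO cells. Their part in the KO sums was not tested. Procr, a surface marker of repopulating stem cells, had 13.3 against 23.1 CPM in DKO, 5.58 against 6.304 in KO and 15.4 against 28.3 in WT. Hlf, a transcription factor of stem cells, had 86.4 against 128 CPM in DKO, 28.00 against 31.9 in KO and 78.1 against 134 in WT. Immediate early genes had medians of -0.16 in DKO, 0.02 in KO and -0.48 in WT, with 1 of 22 in DKO, 0 of 19 in KO and 6 of 23 in WT called lower and 1 higher in KO.

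Biosynthetic lists shifted little. MYC and ribosome biogenesis genes had medians of 0.28 in DKO, 0.10 in KO and 0.38 in WT, with 3 in DKO, 0 in KO and 7 in WT of 34 measured called higher and 1 lower in WT. Srm, spermidine synthase, had 211 against 119 CPM in DKO, 307 against 284 in KO and 189.5 against 105 in WT. Myc itself had 108 against 94.8 CPM in DKO, 93.7 against 77.7 in KO and 100.2 against 80.1 in WT. Nuclear transport, glycolysis and oxidative phosphorylation genes had medians of 0.32 in DKO, 0.10 in KO and 0.40 in WT, of 0.26 in DKO, 0.07 in KO and 0.35 in WT and of 0.09 in DKO, 0.02 in KO and 0.21 in WT. Ldha, lactate dehydrogenase, had 789 against 514 CPM in DKO, 987 against 867 in KO and 615 against 383 in WT. Interferon-stimulated genes had medians of -0.31 in DKO, -0.20 in KO and -0.38 in WT, with 9 of 36 in DKO, 0 of 36 in KO and 11 of 34 in WT called lower and 1 higher in WT.

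Within the S phase cells, the G2M score ranks cells by the mitotic transcripts they held. Whether this ranking follows progress through S phase was not tested. Cells with a G2M score of 0 numbered 860 in DKO, 221 in KO and 876 in WT, those above 0 and under 2.5 numbered 1161, 577 and 859, and those from 2.5 to 10 numbered 527, 303 and 342. Over these ranges, low to high, Ung stood at 208, 192 and 88.1 CPM in DKO, 222, 193 and 129 CPM in KO, and 229, 226 and 120.1 CPM in WT. E2f1 stood at 82.6, 88.7 and 85.96 CPM in DKO, 93.7, 80.3 and 74.6 CPM in KO, and 114, 118 and 101 CPM in WT. Ung was lowest in the top range of all 3 libraries, while E2f1 differed little. Rrm2 stood at 56.00, 126 and 203 CPM in DKO, 83.8, 160.2 and 229.7 CPM in KO, and 53.7, 151 and 254 CPM in WT. Tyms stood at 141, 233 and 345 CPM in DKO, 106, 129 and 149.5 CPM in KO, and 102, 199.8 and 282 CPM in WT. Both enzymes of nucleotide supply were highest in the top range, by a narrow margin for Tyms in KO. Ccne1 stood at 9.24, 15.4 and 22.4 CPM in DKO, 20.7, 30.1 and 52.2 CPM in KO, and 9.13, 23.3 and 39.8 CPM in WT, and Ccne2 at 13.2, 21.8 and 26.1 CPM in DKO, 21.04, 27.7 and 35.2 CPM in KO, and 20.7, 37.04 and 55.7 CPM in WT. Ccna2, the cyclin of later S phase and G2, stood at 10.5, 33.8 and 99.3 CPM in DKO, 20.7, 50.1 and 94.6 CPM in KO, and 12.4, 47.3 and 99.6 CPM in WT. Top2a, the topoisomerase that untangles copied DNA, stood at 112, 200.1 and 434 CPM in DKO, 125, 199 and 237 CPM in KO, and 136, 254 and 477 CPM in WT. Median UMIs per cell also differed along these ranges, from 12518.5 to 16361 in DKO, 13442 to 22507 in KO and 10412.5 to 14481 in WT, and their part in the pattern was not tested.

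**Figure D4:**
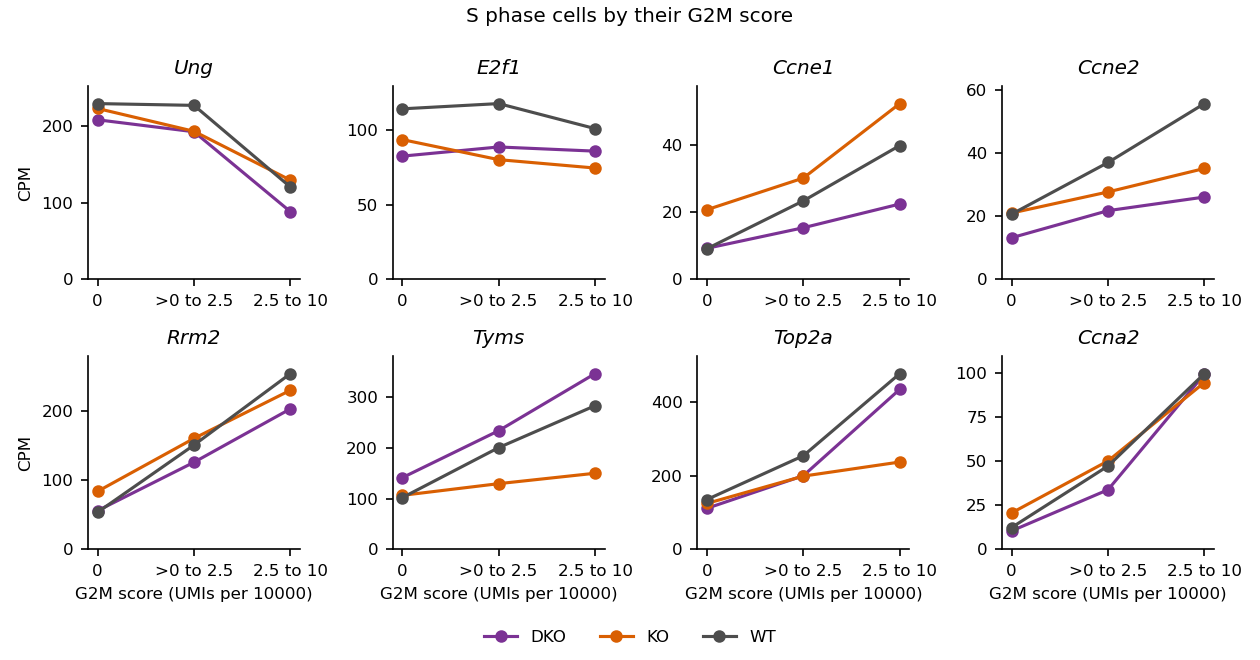
CPM of summed UMIs in S phase cells of DKO, KO and WT split by G2M score (0, above 0 and under 2.5, and 2.5 to 10 UMIs per 10000), 1 point for each library and range. Ung is lowest in the top range, while Rrm2, Top2a and Ccna2 are highest there in all 3 libraries.

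Along the S score the resting genes changed in steps. Txnip stood at 354 CPM in DKO cells with a score under 5, 150.1 from 5 to 10, 109 from 10 to 15 and 112 at 15 or more. The same ranges held 79.8, 34.5, 32.9 and 40.5 CPM in KO, and 292, 130.5, 96.8 and 91.2 in WT. H1f0 stood at 119.5, 88.5, 49.4 and 29.3 CPM in DKO, at 48.3, 31.9, 23.4 and 25.02 in KO, and at 77.3, 46.3, 31.7 and 23.05 in WT. KO cells with a score under 5 held the least Txnip of the 3 libraries and the most Rrm2, at 62.9 CPM against 10.5 in DKO and 13.1 in WT.

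S phase cells were found in each named class. Classes are named from marker genes of clusters built without genes that follow the S or G2M score, a clustering chosen after the planned one was seen to be led in part by such genes. Each class name ends in "-like" because it rests on rebuilt clusters, and S phase shares carry Clopper-Pearson 95% intervals. Megakaryocyte progenitor-like cells, led by Pf4, Gp1bb and Itga2b, were in S phase in 39.4% of 1305 cells in DKO (36.7 to 42.1), 21.4% of 457 cells in KO (17.8 to 25.5) and 32.3% of 616 cells in WT (28.6 to 36.2). Stem cell-like cells were in S phase in 26.2% of 1084 cells in DKO (23.6 to 28.9), 9.84% of 61 cells in KO (3.696 to 20.2) and 20.7% of 1806 cells in WT (18.8 to 22.6). Lymphoid-primed-like cells were in S phase in 25.2% of 870 cells in DKO (22.3 to 28.2) and 18.99% of 1332 cells in WT (16.9 to 21.2), and KO held only 41 such cells. A cluster led by Cox6a2, Dntt and Ly6d, with Il7r and Notch1 also among its leading genes, fell short of the naming rule and stands outside this class. Its shares were 42.4% of 288 cells in DKO (36.6 to 48.3), 30.8% of 120 cells in KO (22.7 to 39.9) and 28.3% of 752 cells in WT (25.1 to 31.7). The stem cell-like class joins a cluster led by Tgm2, Hacd4 and Procr, which held most of its DKO cells, and one led by Hlf and Ltb, which held most of its WT cells. In the first the shares were 27.1% of 989 cells in DKO (24.3 to 29.98) and 20.8% of 753 cells in WT (18.00 to 23.9), and in the second, in the other direction, 16.8% of 95 cells in DKO (9.94 to 25.9) and 20.5% of 1053 cells in WT (18.1 to 23.1). The order of DKO and WT in the stem cell-like class depended on the clustering. With the planned clusters the shares were 18.8% in DKO and 12.01% in WT, at resolution 0.6 they were 8.19% in DKO and 14.4% in WT, and at 1.5 4.43% in DKO and 9.54% in WT. For the lymphoid-primed-like class they were 33.8% in DKO and 34.2% in WT with the planned clusters, 32.97% in DKO and 25.4% in WT at 0.6, and 21.98% in DKO and 23.1% in WT at 1.5. In the megakaryocyte progenitor-like class DKO was highest and KO lowest in all 4 clusterings, with 39.7%, 21.95% and 33.03% in DKO, KO and WT in the planned one. At 5500 UMIs the megakaryocyte progenitor-like shares were 36.2%, 24.5% and 32.4% in DKO, KO and WT.

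Other classes belonged mostly to 1 library, so a class and its library cannot be told apart there. B lineage-like cells, led by early B cell genes and in large part a WT class, were in S phase in 41.3% of 646 cells in WT (37.5 to 45.2). Erythroid progenitor-like cells were in S phase in 31.3% of 217 cells in DKO (25.2 to 37.96) and 18.8% of 1191 cells in KO (16.6 to 21.1). Most KO cells of that class lay in a cluster led by globin genes, and nearly all DKO cells in another whose leading genes also held Prss34, Ms4a2 and Fcer1a of the basophil and mast line. In that second cluster the shares were 31.8% of 214 cells in DKO (25.6 to 38.5) and 17.2% of 192 cells in KO (12.1 to 23.3). Neutrophil progenitor-like cells were in S phase in 23.2% of 1176 cells in KO (20.8 to 25.7). An unnamed cluster led by Mcpt8, Ccl9 and Cpa3, found in DKO and WT, was in S phase in 43.5% of 1093 cells in DKO (40.6 to 46.5) and 35.1% of 567 cells in WT (31.2 to 39.2). The sort for lineage-negative cells should remove mature cells of these lineages. An unnamed cluster led by Ifitm1, Vldlr, Gm10709 and Ffar2 held 1709 KO cells and 38.9% of all KO S phase cells.

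**Figure D5:**
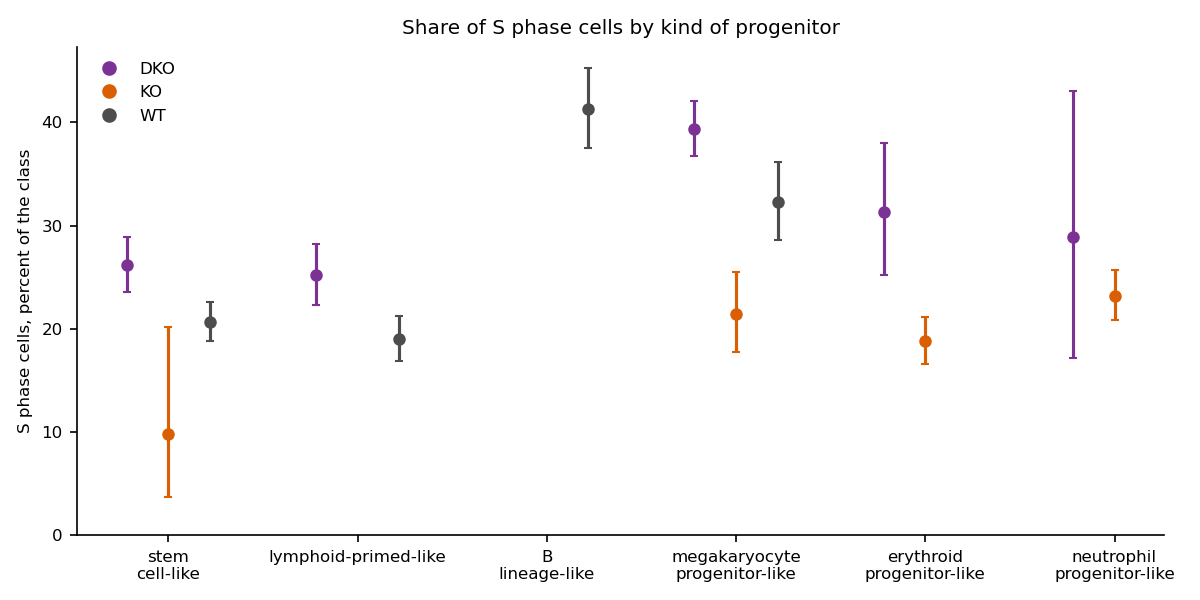
Share of cells in S phase, in percent of each class, for classes with at least 50 cells in a library, with Clopper-Pearson 95% intervals as bars (counting error only) and 1 point for each of DKO, KO and WT. The megakaryocyte progenitor-like shares were 39.4% in DKO, 21.4% in KO and 32.3% in WT.

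The contrast between S phase cells and the rest was also taken within classes. Within the megakaryocyte progenitor-like class the replication fork median, S phase cells over the rest of that class, was 0.58 in DKO, 0.49 in KO and 0.65 in WT on the log2 scale. Within stem cell-like cells it was 1.08 in DKO and 1.25 in WT, within B lineage-like cells 0.50 in WT, and within erythroid progenitor-like cells 0.66 in DKO and 0.62 in KO. Neutrophil progenitor-like cells of KO had the lowest value, 0.22, with a median S score of 6.45 in their rest and median depths of 32096 UMIs in S phase cells and 36131 in the rest. Stem cell-like rest cells had median S scores of 2.68 in DKO and 2.46 in WT.

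Marker genes of other cell types were also present. In WT, 11 of 13 measured B lineage markers were higher in S phase cells than in the rest, and their summed level was 1516 against 854 CPM. The median WT S phase cell nonetheless held 0.910 UMIs of these markers per 10000, against 1.03 in the rest. Macrophage and endothelial or stromal markers were at 0 in the median cell of every library, in and out of S phase.

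Between KO and WT S phase cells, no replication fork gene reached 1.5-fold, while many lineage and resting genes did. The same S score limit chose the cells of both libraries, which partly fixes the levels of genes that follow that score. The fork and nucleotide supply values here are therefore a description. Against WT, KO S phase cells had 260 higher genes (5.2% of 5000) and 438 lower (8.76%), and 221 and 385 of these were called the same way in the rest. At the level minimum of the lists, 5.44% were higher and 13.6% lower. The 37 replication fork and 26 nucleotide supply genes had medians of -0.11 and 0.19. TMM scaling adds 0.12 to every log2 value of KO over WT, which takes the fork median to 0.00 and the nucleotide supply median to 0.31. Nucleotide supply genes past 1.5-fold numbered 0 without that shift and 3 with it, and it gives 463 higher and 304 lower genes. Ccne1 was 1.702-fold (1.52 to 1.902) higher in KO. Of 24 quiescence-linked genes 22 were lower (median -1.19), and of 21 immediate early genes 18 were lower and 1 higher (median -1.84). Txnip stood at 33.7 CPM in KO and 94.8 in WT S phase cells, and Fos, a stress- and growth-induced factor, at 66.3 and 452. Of 25 stem cell regulators 17 were lower and 1 higher (median -0.91). Interferon-stimulated genes were higher in 11 of 36 (median 0.33).

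Lineage genes carried the widest gaps between KO and WT. The 8 highest genes in KO S phase cells were Car1, Ccr2, Dmkn, Hp, Lcn2, Ms4a3, Mt1 and Trem3. Ms4a3, a granulocyte progenitor gene, stood at 589 CPM in KO and 22.5 in WT, and Car1, carbonic anhydrase of the erythroid line, at 277 and 14.8. The 8 lowest were the B lineage genes Blnk, Cd79a, Ebf1, Igll1, Ly6d, Mzb1, Vpreb1 and Vpreb3, and Ebf1, the B lineage factor, stood at 0.759 CPM in KO and 202 in WT. Summed over the erythroid marker list, S phase cells held 2357 CPM in KO and 693 in WT, and over the neutrophil progenitor list 13196 and 4587. Without the erythroid, neutrophil and B lineage clusters the counts of KO against WT were 68 higher and 156 lower.

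DKO S phase cells lay closer to WT by count. Against KO, DKO had 586 higher genes (11.6% of 5052) and 250 lower (4.95%), and against WT it had 166 higher (3.2% of 5186) and 93 lower (1.79%). These comparisons share libraries with each other and with KO over WT. At 5 CPM the shares were 15.3% and 5.77% against KO, and 4.32% and 3.85% against WT. Against KO, 14 of 21 quiescence-linked genes, 16 of 20 immediate early genes and 20 of 27 stem cell regulators were higher in DKO, and 1, 1 and 0 were lower. Against WT the numbers called higher were 1 of 24, 0 of 23 and 7 of 27, and those called lower were 9, 8 and 1. The DKO over WT medians of these lists were -0.26, -0.38 and 0.15. TMM scaling shifts DKO over KO by -0.15 and gives 352 higher and 465 lower genes, so which direction holds more calls depends on scaling. Tyms was 1.75-fold (1.68 to 1.83) higher in DKO than in KO S phase cells, and Ccne1 stood at 15.3 CPM in DKO, 36.4 in KO and 21.4 in WT.

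Against WT the 8 highest DKO genes were Car1, Ccl5, Cpa3, Fam46a, Itga2b, Ms4a3, Pf4 and Slc4a8. Pf4, platelet factor 4 of the megakaryocyte line, stood at 136 CPM in DKO and 37.97 in WT, and Itga2b, the platelet integrin subunit, at 68.9 and 21.8. The rest of the libraries showed the same direction, with Pf4 at 168 CPM in DKO and 52.8 in WT. Of 37 replication fork genes 0 were called, with a median of 0.12, under the same S score limit in both libraries.

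The cells outside S phase differed more between KO and the other libraries. In the rest, KO over WT had 12.1% of genes higher and 13.8% lower at 20 CPM, and 10.2% and 19.2% at 5 CPM. There 8 of 37 replication fork genes and 15 of 26 nucleotide supply genes were higher in KO, with medians of 0.38 and 0.69, where S phase cells had 0 and 0 without TMM scaling. Rrm2 in the rest stood at 114 CPM in KO and 52.5 in WT. For DKO over KO the shares in the rest were 15.6% higher and 7.55% lower at 20 CPM, and 20.2% and 7.55% at 5 CPM, with 9 of 26 nucleotide supply genes lower. For DKO over WT they were 2.95% and 1.92% at 20 CPM, and 4% and 3.48% at 5 CPM, with no nucleotide supply gene called. The S score limit also shapes the rest, whose median S score was 3.73 in DKO, 4.99 in KO and 2.97 in WT. Mitotic cells, which belong to the rest, made up 20.8% of KO and 12.3% of WT cells. The part of either in these values was not tested.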

How the data were processed

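Single-cell RNA of sorted mouse marrow cells was measured in 3 libraries. The values used are the whole UMI counts deposited by the authors, with 14721 genes and 21251 cells. Per the submitters' processing notes the tools included Seurat, Cell Ranger and bcl2fastq, with build mm10, while their roles and versions are not given in the sources used here. The deposited normalized table was not used. The S phase rule and gene lists were chosen with earlier results of these data known. Counts were summed over the S phase cells and over the rest of each library and divided by their totals (CPM), so each cell weighs by its depth, which was 3716 to 57689 UMIs. Ratios carry exact conditional binomial and shares Clopper-Pearson 95% intervals, for counting error only. A gene was called at 1.5-fold or more with a mean of at least 20 CPM (5 CPM for lists). With 1 library per genotype nothing was tested, and a count of 0 allows 3 counts of the total.

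Genes named are the 20 of the rule, the 10 highest and 10 lowest mean log2 ratios among genes called the same way in all 3 libraries, up to 4 genes of each list with the largest ratios, and the 8 highest and lowest between libraries, leaving out globin, sex-linked, mitochondrially encoded, ribosomal and predicted genes. Gmnn, Slbp, Tk1, Ccna2, Top2a, Xist, Ddx3y, Myd88 and cluster leaders fall outside that rule and were chosen after their values were seen. A few genes that the rule names are not reported here. Clusters used scanpy 1.11.5 with 2000 variable genes, 30 components, 20 neighbours and Leiden resolution 1. A class name needed 3 markers among the top 15 genes and a lead of 2. Scrublet scores were used only in an alternative that removed 536 DKO, 194 KO and 531 WT cells, since all deposited cells were kept. TMM came from edgeR 4.0.16. Ratios and intervals were tested on simulated data. Alternatives covered scaling, level minimum, cell weight, depth, thresholds, doublets and cell mix.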

Additional observations from a re-analysis of the deposited data

How the results depend on the processing

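Counts below are genes called higher and lower, and ratios are S phase shares of 1 library over another. At an S threshold of 8 the shares were 39.9% in DKO, 36.9% in KO, 33.3% in WT, with ratios of 1.11 for KO over WT, 1.08 for DKO over KO, 1.197 for DKO over WT. At 12 they were 22.7% in DKO, 11.5% in KO, 17.9% in WT, with ratios of 0.643 for KO over WT, 1.98 for DKO over KO, 1.27 for DKO over WT. Thinned to 5500 UMIs the shares were 29.7% in DKO, 23.9% in KO, 25.1% in WT, with ratios of 0.952 for KO over WT, 1.24 for DKO over KO, 1.18 for DKO over WT, and at 3700 UMIs the KO share was 26.5%, with ratios of 1.04 for KO over WT, 1.14 for DKO over KO, 1.19 for DKO over WT. Leaving out the erythroid, neutrophil and B lineage clusters (chosen after seeing the data) gave 31.2% in DKO, 23.3% in KO, 24.01% in WT, with ratios of 0.971 for KO over WT, 1.34 for DKO over KO, 1.298 for DKO over WT. So KO over WT changed direction at a threshold of 8 and at 3700 UMIs.

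For S phase cells against the rest, a level minimum of 5 CPM gave 289 and 292 in DKO, 87 and 125 in KO, 419 and 429 in WT, and 50 CPM gave 80 and 40 in DKO, 13 and 21 in KO, 119 and 53 in WT. Without mitotic cells in the rest KO had 20 and 19. With equal weight per cell KO had 58 higher. Without the clusters named above KO had 75 and 83. Weighting the rest to the planned-cluster mix of the S phase cells gave 90 and 54 in DKO, 123 and 54 in WT. Those clusters were led in part by genes that follow the scores. With clusters free of such genes the counts were 137 and 93 in DKO, 181 and 104 in WT.

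Between genotypes in S phase cells, 5 CPM gave 487 and 1214 for KO over WT, 1365 and 513 for DKO over KO, 393 and 350 for DKO over WT, and 50 CPM gave 148 and 175 for KO over WT, 227 and 141 for DKO over KO, 73 and 42 for DKO over WT. TMM scaling gave 463 and 304 for KO over WT, 352 and 465 for DKO over KO, 142 and 115 for DKO over WT, and median-of-ratios scaling 516 and 284 for KO over WT, 337 and 491 for DKO over KO, 148 and 110 for DKO over WT. TMM shifted log2 ratios by 0.12 for KO over WT and by -0.15 for DKO over KO, so the split of higher and lower calls there depends on scaling. Without the clusters named above the counts were 68 and 156 for KO over WT, 303 and 58 for DKO over KO, 104 and 72 for DKO over WT. Weighting both libraries to 1 cluster mix gave 156 and 322 for KO over WT, 472 and 136 for DKO over KO, 65 and 58 for DKO over WT with the planned clusters and 114 and 335 for KO over WT, 357 and 130 for DKO over KO, 70 and 52 for DKO over WT with clusters free of genes that follow the scores. For KO over WT this mix rests on 1 and 2 clusters, and for DKO over KO likewise on 1 and 2. For DKO over KO those clusters held 18.2% of DKO and 8.99% of KO S phase cells with the planned clusters. With the other clusters they held 24.96% and 12.3%, so these counts do not cover most S phase cells.

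With mitotic cells out of the rest, these log2 values changed sign in DKO: Ccnb1 0.20, Fam64a 0.0575, Kif11 0.0854, Kif2c 0.13, Prc1 0.0473, Tuba1c 0.0868. In WT they were Ccnb1 0.50, Cdc20 0.0249, Fam64a 0.45, Kif11 0.21, Kif2c 0.52, Knstrn 0.27, Prc1 0.20, Tpx2 0.21. With the planned clusters weighted to 1 mix, values that changed sign were Lcn2 KO over WT -1.82, Lcn2 DKO over KO 0.17, Ms4a3 DKO over KO 0.00127, rule G2M genes KO over WT -0.18, MHC class II genes KO over WT 0.45, megakaryocyte progenitor DKO over KO -0.47, erythroid progenitor DKO over KO 0.45, mature neutrophil KO over WT -3.15, monocyte-dendritic KO over WT -0.00531, monocyte-dendritic DKO over KO 0.0275, basophil-mast DKO over WT -0.00417, T NK innate lymphoid DKO over WT -0.0248. With the other clusters they were Lcn2 KO over WT -1.02, Lcn2 DKO over KO 0.72, rule G2M genes KO over WT -0.35, megakaryocyte progenitor DKO over KO -0.48, erythroid progenitor DKO over KO 0.34, neutrophil progenitor DKO over KO 0.0813, mature neutrophil KO over WT -2.83. For KO over WT and DKO over KO these reweighted values cover only the cells of the 1 and 2 clusters given above. The cause was not tested. No paired analysis was possible because each genotype has 1 library. Among class shares 26 values moved by less than counting error and 13 by more. Among single genes 780 did not move beyond it, 726 did and 19 changed sign.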

Other observations

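A few transcripts in S phase cells came from very few cells. Prss34, a basophil protease, had 784 UMIs in DKO S phase cells, of which 97.6% lay in 1 cell, and 578 UMIs in WT, of which 99.7% lay in 1 cell. S100a9, a neutrophil calcium-binding protein, had 76.1% of its 1555 KO UMIs in 1 cell. Ccl5, among the genes higher in DKO, was detected in 5.81% of DKO S phase cells, and 5 cells held 47.01% of its UMIs.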
